A study of Mus musculus with 28 samples.

Results

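The 9 genes described here encode the enzymes that build glutathione (Gclc, Gclm and Gss), the transporter that imports cystine for it (Slc7a11), the reductase that regenerates it (Gsr) and 4 peroxidases that use it to remove peroxides (Gpx1, Gpx2, Gpx3 and Gpx4). They were chosen by symbol, matched to the Ensembl identifiers of the count table, and the symbols were set with earlier results of these data known, although the rule itself uses no measured value. All 9 were found among 35880 identifiers. Each of the 9 passed the filter on low counts, which left 14887 genes for testing.

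Messenger RNA was sequenced from homogenates of whole lung from wild-type male C57BL/6 mice, an inbred strain, at 8 to 12 weeks of age. Mice breathed 10 mg/m3 carbon black together with 2 ppm ozone (CB-O3, the co-exposure), 2 ppm ozone alone (O3), 10 mg/m3 carbon black alone (CB), or air as sham (Sham), for 3 hours at a time. Carbon black is a fine particle of nearly pure carbon and ozone is an oxidant gas. The day 1 groups had 1 exposure and 4 libraries each, and the day 4 groups had 4 exposures and 3 libraries each, giving 28 libraries. Day and number of exposures cannot be told apart, and the labels do not give the interval between the last exposure and collection of the lung. Whether libraries stem from separate mice is not stated in the labels either, so p-values measure the spread between libraries, which may be technical.

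Libraries held 5.14 to 9.72 M estimated counts, with a median of 7.19 M (M, mega), and levels are given as CPM, the counts of a gene scaled to a common library size with TMM factors. All 6 alveolar type 2 cell genes of a marker list were detected in every library, with summed levels of 21300 to 28500 CPM, and all 5 club cell genes, with 24300 to 63100 CPM. Sham replicate 2 of day 1 stood apart in its adipose and muscle genes, which summed to 1250 CPM, and carbon black replicate 3 of day 4 was next at 929 CPM. Co-exposure replicate 3 of day 4 followed at 614 CPM, against 73.9 and 147 CPM in its group. The part of these libraries in the results below was not tested, and calls that changed without any 1 of them are named beside the gene.

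Glutathione is a tripeptide of glutamate, cysteine and glycine. Glutamate-cysteine ligase, made of the catalytic subunit Gclc and the modifier subunit Gclm, carries out the rate-limiting step of its synthesis, and cysteine supply through cystine import can limit it too. Glutathione is abundant in lung cells and in the fluid that lines the airways, where it meets inhaled oxidants, and many of its genes are targets of the transcription factor NRF2 (Nfe2l2), which binds antioxidant response elements.

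The promoters of Gclm, Slc7a11 and Gpx2 are shown because these genes passed the test after a single ozone exposure and had an entry in the RefSeq table. Of the 9 genes, 7 matched that table, and Gclc and Gsr did not. Each window holds 250 bases before and 50 after the RefSeq start, read 5′ to 3′ on the strand of the gene in the assembly GRCm38.p6. Capitals mark matches, on either strand, to the antioxidant response element core TGACNNNGC, to its variant TGAGNNNGC and to the amino acid response element core TGATGNAA. No match overlapped another.
Gclm, chr3:122245307-122245606, plus strand: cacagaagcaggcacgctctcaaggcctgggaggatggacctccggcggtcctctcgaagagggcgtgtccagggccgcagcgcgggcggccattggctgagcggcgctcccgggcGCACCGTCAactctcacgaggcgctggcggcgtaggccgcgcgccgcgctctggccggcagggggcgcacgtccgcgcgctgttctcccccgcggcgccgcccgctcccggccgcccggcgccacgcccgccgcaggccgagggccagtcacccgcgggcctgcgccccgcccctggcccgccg
Slc7a11, chr3:50443564-50443863, minus strand: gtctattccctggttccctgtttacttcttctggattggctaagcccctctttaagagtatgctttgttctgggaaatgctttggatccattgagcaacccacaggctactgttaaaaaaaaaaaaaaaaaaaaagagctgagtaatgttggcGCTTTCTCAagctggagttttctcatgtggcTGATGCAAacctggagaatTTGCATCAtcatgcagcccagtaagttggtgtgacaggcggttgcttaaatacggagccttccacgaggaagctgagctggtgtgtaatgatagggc
Gpx2, chr12:76795505-76795804, minus strand: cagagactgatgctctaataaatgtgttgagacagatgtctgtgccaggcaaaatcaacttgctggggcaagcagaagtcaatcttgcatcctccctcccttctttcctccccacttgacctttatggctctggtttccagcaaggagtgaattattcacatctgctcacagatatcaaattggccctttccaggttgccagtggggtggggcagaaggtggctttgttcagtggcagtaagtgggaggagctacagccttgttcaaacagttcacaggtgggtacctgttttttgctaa
The Gclm window held TGACNNNGC on the opposite strand at positions -134 to -126, where 0 is the first transcribed base. In the Slc7a11 window TGAGNNNGC stood on the opposite strand at -97 to -89, and TGATGNAA stood on the gene's strand at -66 to -59 and on the other at -47 to -40. The Gpx2 window held none of these letters. Over 32851 RefSeq windows of this length, 12.4% held TGACNNNGC, 17.6% held TGAGNNNGC and 3.97% held TGATGNAA, so a match is common and is given as a description.

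Per kilobase of the longest annotated transcript, the mean level in day 1 sham lungs was highest for the secreted peroxidase gene Gpx3 at 506 CPM per kb. Gpx4 stood at 271 and Gpx1 at 230 CPM per kb. Gclc had 62.2, Gsr 27.8, Gss 10.9, Gclm 10.2 and Gpx2 8.45 CPM per kb, and Slc7a11 was lowest at 0.288 CPM per kb. The transcripts that lung cells use can be shorter than the longest annotated ones, which would raise a level per kilobase.

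**Figure D1:**
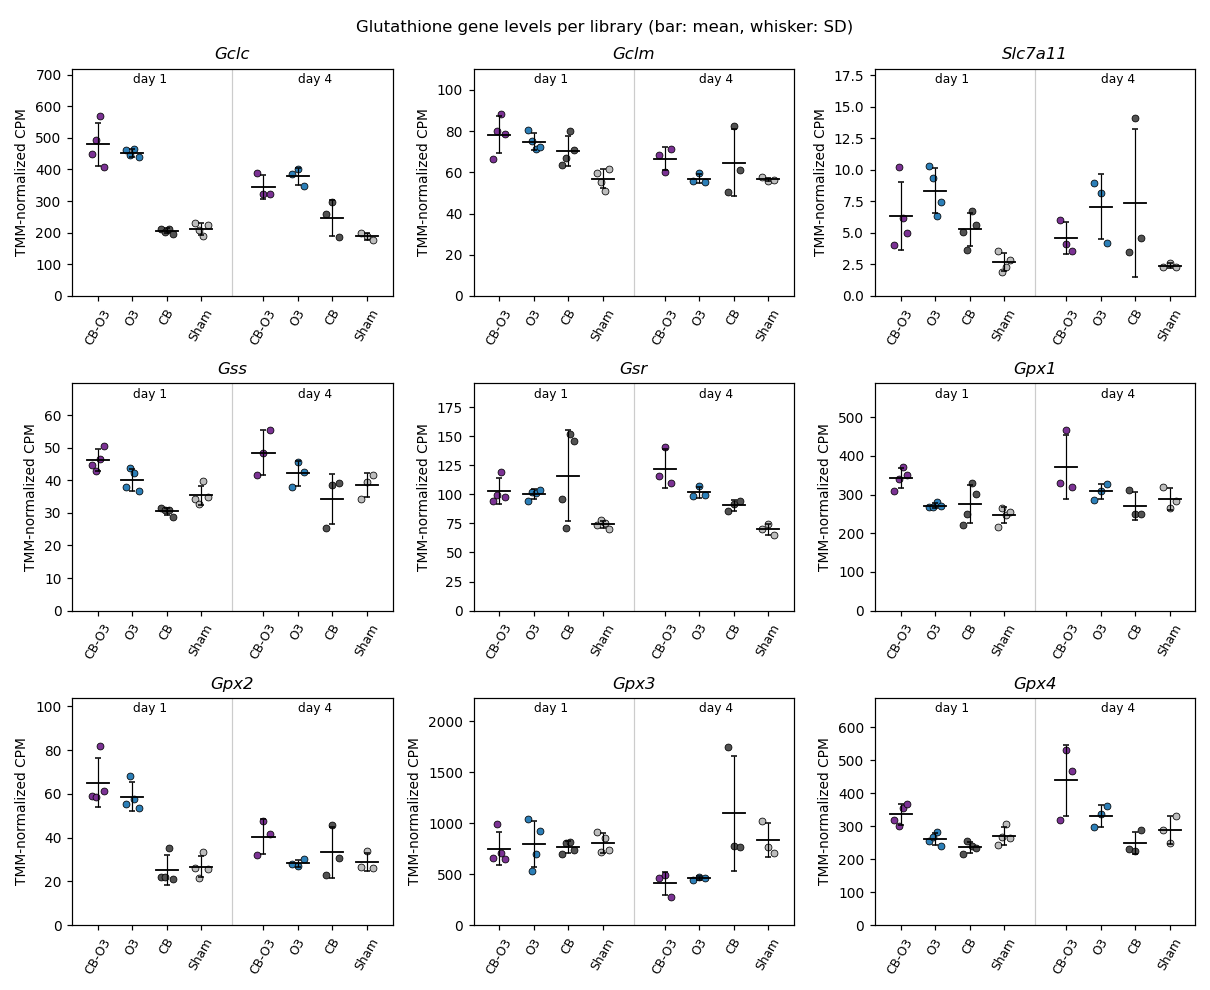
TMM-normalized CPM of the 9 genes in each of the 28 libraries, by exposure and day, with bars for the group mean and whiskers for the SD. Gclc in CB-O3 and O3 libraries of both days lies at 323 to 568 CPM, above the Sham libraries at 178 to 231 CPM, while Gpx3 in CB-O3 and O3 libraries of day 4 lies at 280 to 492 CPM, below the day 4 Sham libraries at 707 to 1020 CPM.

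Most of the glutathione genes rose after an exposure that held ozone, and Gpx3 fell. On day 1, 7 of the 9 were higher after co-exposure (Gclc, Gclm, Gss, Slc7a11, Gsr, Gpx1 and Gpx2), where 10.1% of all tested genes were higher and 19.2% passed in either direction. After ozone on day 1, 4 were higher (Gclc, Gclm, Slc7a11 and Gpx2), against 6.81% of all genes higher and 11.4% in either direction. After carbon black on day 1, 1 was higher (Gsr), against 1.57% and 1.66%. No member was lower on day 1 in these comparisons, where 9.09% of all genes were lower after co-exposure, 4.63% after ozone and 0.0873% after carbon black.

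On day 4, 5 members were higher after co-exposure (Gclc, Gss, Gsr, Gpx1 and Gpx4) and Gpx3 was lower, where 17.7% of all genes were higher, 16.3% lower and 34.1% passed in all. After ozone on day 4, 3 were higher (Gclc, Gsr and Slc7a11) and Gpx3 was lower, against 11.7% of all genes higher, 9.07% lower and 20.7% in all. After carbon black on day 4, edgeR called 0 of the 9 and 0.208% of all genes (0.161% higher and 0.047% lower). There 3 members had an unadjusted p under 0.05, and DESeq2 called 1, where 2266 of all 14887 genes had such a p and DESeq2 called 178. The median log2 fold change of the 9 genes was 0.47 after co-exposure, 0.40 after ozone and -0.05 after carbon black on day 1, and 0.49, 0.13 and 0.23 on day 4, where the median of all genes lay between -0.01 and 0.01. The 3 exposures of a day share their sham libraries, so these counts are not independent of each other.

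The members whose libraries did not overlap sham were those past the test for co-exposure on day 1 and ozone on day 4, and differed from them in the other comparisons with sham. On day 1, 7 members had every co-exposure library above every sham library (12% of all genes did, and 10.4% lay below), 6 had every ozone library above (12%, and 9.23% below), and carbon black had 2 above and 1 below (4.73% and 3.58%). On day 4 the counts were 4 above and 1 below for co-exposure (20.7% and 19.5%), 3 above and 1 below for ozone (22.5% and 20.6%) and 2 above and 0 below for carbon black (7.93% and 7.65%).

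**Figure D2:**
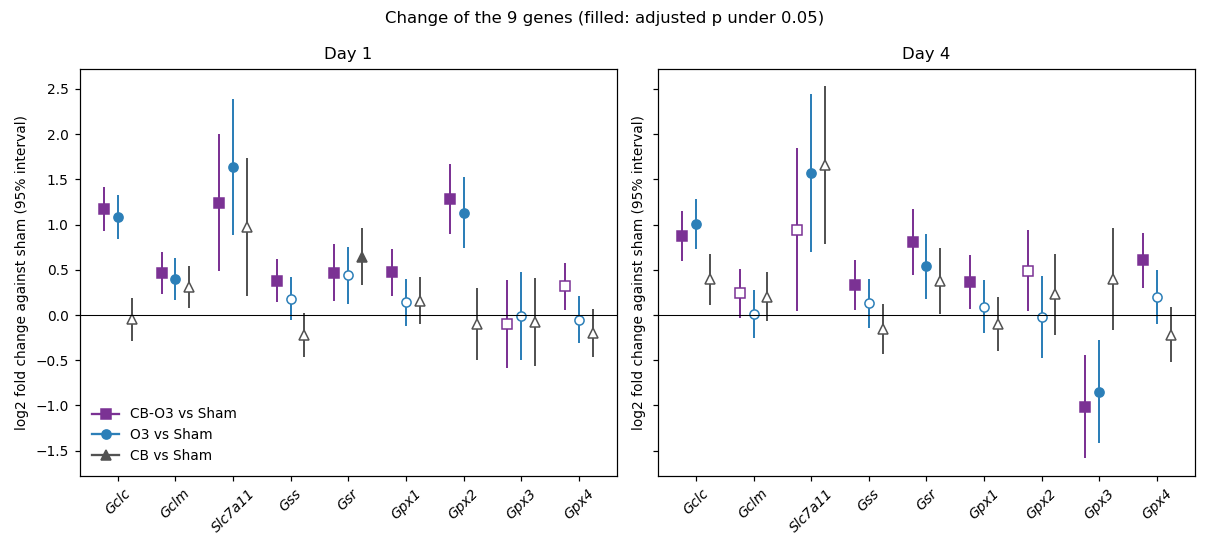
Log2 fold change against the sham libraries of the same day for the 9 genes, with 95% intervals, for CB-O3 (squares), O3 (circles) and CB (triangles). Filled symbols passed an adjusted p of 0.05 over all genes, which 7, 4 and 1 members did on day 1 and 6, 4 and 0 on day 4 in this order of exposures.

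Gclc (ENSMUSG00000032350, GRCm38 chromosome 9, 77754535 to 77794485, plus strand) encodes the catalytic subunit of glutamate-cysteine ligase and rose after ozone and co-exposure on both days. On day 1 it stood at 450, 493, 568 and 407 CPM in co-exposed lungs and at 462, 447, 465 and 438 CPM in ozone lungs, against 231, 207, 189 and 225 CPM in sham lungs. Every ozone and co-exposure library was above every sham library. Carbon black libraries, at 213, 202, 212 and 197 CPM, lay within the sham range. The log2 fold change was 1.17 ± 0.11 after co-exposure (SE; adjusted p = 1.55e-07, edgeR) and 1.09 ± 0.11 after ozone (adjusted p = 7.64e-07), or 2.25-fold and 2.13-fold higher.

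On day 4 Gclc had 388, 323 and 323 CPM after co-exposure and 385, 402 and 348 CPM after ozone, against 198, 188 and 178 CPM in sham, again without overlap. The changes were 0.87 ± 0.13 after co-exposure (adjusted p = 1.05e-05) and 1.01 ± 0.13 after ozone (adjusted p = 3.06e-06). These 4 calls held in every alternative tried, with adjusted p of at most 0.00197. Carbon black libraries of day 4 were spread, at 260, 297 and 185 CPM, and the change of 0.39 ± 0.13 missed the threshold (adjusted p = 0.158). Without carbon black replicate 3 it was 0.58 and passed (adjusted p = 0.0145).

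In the order of group means, Gclc ran from co-exposure of day 1 (479 ± 69 CPM, SD) and ozone of day 1 (453 ± 12.6 CPM), whose libraries overlapped, through ozone of day 4 (378 ± 27.4 CPM) and co-exposure of day 4 (345 ± 37.5 CPM), which overlapped too, to the carbon black and sham groups at 188 to 247 CPM. The day 1 ozone libraries did not overlap those of day 4. The change after ozone did not differ between the days past the threshold (day 4 minus day 1, -0.08 ± 0.17, 95% interval -0.43 to 0.27, adjusted p = 0.867). The genes whose log2 levels followed Gclc most closely over the 28 libraries were Il33, with a Pearson r of 0.943, Lif with 0.929 and Lcn2 with 0.927, a description over libraries that share their groups.

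Gclm (ENSMUSG00000028124, chromosome 3, 122245557 to 122270732, plus strand) encodes the modifier subunit of the same ligase, and its rise was smaller and was seen on day 1. It stood at 66.7, 80, 88.2 and 78.4 CPM after co-exposure and at 80.5, 75.3, 71.3 and 72.3 CPM after ozone, against 59.7, 55.2, 51.1 and 61.4 CPM in sham. No ozone or co-exposure library fell within the sham range. The log2 fold changes were 0.46 ± 0.11 after co-exposure (adjusted p = 0.00356) and 0.40 ± 0.11 after ozone (adjusted p = 0.017). The ozone call was lost without ozone replicate 1 (adjusted p = 0.0522) or without sham replicate 3 (adjusted p = 0.0685).

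Carbon black libraries of day 1 were also all above sham, at 63.6, 67.2, 80.3 and 70.9 CPM, but the change of 0.31 ± 0.11 did not pass (adjusted p = 0.225). On day 4 Gclm had 68.6, 60.3 and 71.2 CPM after co-exposure and 55.9, 59.6 and 55.5 CPM after ozone, against 57.5, 55.9 and 56.3 CPM in sham. The ozone libraries of day 4 lay around the sham level (0.01 ± 0.13, 95% interval -0.25 to 0.27), and the co-exposure change of 0.24 ± 0.13 did not pass (adjusted p = 0.146). The carbon black libraries of day 4 straddled sham at 50.6, 82.4 and 61.3 CPM. The difference of the ozone change between the days, -0.38 ± 0.17, missed the threshold (adjusted p = 0.225). It passed with the 4 compared groups alone in the fit (adjusted p = 0.027).

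Group means of Gclm ran from 78.3 ± 8.85 CPM in co-exposed lungs of day 1 to 56.6 ± 0.809 CPM in sham lungs of day 4, and the ranges of every pair of neighbours in that order overlapped. The genes most like it were Gabrp (r = 0.817), Cry1 (0.799) and Rnf121 (0.782).

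Gss (ENSMUSG00000027610, chromosome 2, 155563181 to 155592810, minus strand) encodes glutathione synthetase, which adds glycine in the last step, and rose after co-exposure. On day 1 it had 44.6, 43, 46.7 and 50.6 CPM after co-exposure, against 34.4, 32.9, 39.7 and 34.8 CPM in sham, with no overlap. The log2 fold change was 0.38 ± 0.11 (adjusted p = 0.0161), and it missed the threshold without co-exposure replicate 4 (adjusted p = 0.0562) or without sham replicate 2 (adjusted p = 0.0526). On day 4 the values were 41.8, 48.3 and 55.6 CPM after co-exposure, against 34.4, 39.5 and 41.8 CPM in sham, which touch at 41.8 CPM. That change, 0.33 ± 0.13, was just past the threshold (adjusted p = 0.0448). It was lost without co-exposure replicate 2 or 3, without sham replicate 1 or 2, without the low-count filter, and with the compared groups alone in the fit (adjusted p = 0.0749 to 0.24).

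After ozone alone Gss stood at 38, 43.9, 42.2 and 36.6 CPM on day 1 and at 38.1, 45.8 and 42.7 CPM on day 4. Both ranges overlapped sham, and the changes of 0.18 ± 0.11 and 0.13 ± 0.13 did not pass. Carbon black libraries of day 1 all lay below sham, at 31.5, 30.8, 30.8 and 28.9 CPM, with a change of -0.22 ± 0.11 that did not pass (adjusted p = 0.532). Co-exposure exceeded carbon black on both days, by 0.60 ± 0.11 on day 1 (adjusted p = 0.000282) and by 0.48 ± 0.13 on day 4 (adjusted p = 0.00416). In a fit of the 2 compared groups the day 4 value did not pass (adjusted p = 0.107). In the order of means each neighbour overlapped the next, from 48.5 ± 6.9 CPM in day 4 co-exposure to 30.5 ± 1.12 CPM in day 1 carbon black. Hspbp1 (r = 0.915), Cldn7 (0.903) and Crb3 (0.902) had the most similar patterns. Gss overlaps Acss2 on the opposite strand, and the libraries were made with a stranded kit.

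Slc7a11 (ENSMUSG00000027737, chromosome 3, 49892526 to 50443614, minus strand) encodes the cystine-glutamate exchanger subunit xCT, the cystine supply for synthesis. It was the member with the fewest counts, 13 to 103 per library. On day 1 it had 4.07, 10.2, 6.21 and 4.99 CPM after co-exposure and 10.3, 9.32, 6.37 and 7.43 CPM after ozone, against 3.57, 1.93, 2.31 and 2.82 CPM in sham. All ozone and co-exposure libraries were above all sham libraries. The log2 fold changes were 1.24 ± 0.36 after co-exposure (adjusted p = 0.017) and 1.64 ± 0.36 after ozone (adjusted p = 0.00337). The co-exposure call was lost without co-exposure replicate 2 (0.93, adjusted p = 0.0784) or without sham replicate 2 (1.12, adjusted p = 0.0586).

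Carbon black of day 1 gave 5.04, 3.66, 6.74 and 5.64 CPM, each above the highest sham library, and a change of 0.98 ± 0.37 that did not pass over all genes (adjusted p = 0.28). On day 4 Slc7a11 had 6.01, 4.12 and 3.6 CPM after co-exposure, 8.95, 8.13 and 4.17 CPM after ozone and 3.46, 14.1 and 4.59 CPM after carbon black, against 2.28, 2.61 and 2.26 CPM in sham. Every exposed library of day 4 was above every sham library. Ozone passed (1.57 ± 0.42, adjusted p = 0.00816), and co-exposure (0.94 ± 0.43, adjusted p = 0.0916) and carbon black (1.66 ± 0.42, adjusted p = 0.105) did not. The carbon black change passed in DESeq2 (adjusted p = 0.0284) and without carbon black replicate 3 (adjusted p = 0.0199). Carbon black replicate 2, at 14.1 CPM, was the highest library of all 28.

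The ozone and carbon black changes of Slc7a11 did not add up on the log scale at day 4. The interaction, which is the co-exposure change less the sum of the single changes, was -2.29 ± 0.58 (adjusted p = 0.0463), where 0.605% of all genes had a lower interaction and 1.37% passed in either direction. Slc7a11 was the single member past the threshold in an interaction in edgeR, and DESeq2 gave it -2.28 without an adjusted p. Without carbon black replicate 2 the interaction was -1.41 (adjusted p = 0.135). It also lost the threshold without 9 other libraries left out in turn, among them co-exposure replicate 3 (-2.14, adjusted p = 0.146). The same held without the low-count filter (adjusted p = 0.0655) and with the length correction described below for Gpx1 and Gpx4 (adjusted p = 0.0764). With the 4 day 4 groups alone in the fit it did not pass either (adjusted p = 0.239). At day 1 the interaction was -1.37 ± 0.50 (adjusted p = 0.137).

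Apart from the sham groups, at 2.66 ± 0.711 CPM on day 1 and 2.38 ± 0.198 CPM on day 4, all neighbours in the order of Slc7a11 means overlapped, from 8.35 ± 1.78 CPM in day 1 ozone to 4.57 ± 1.27 CPM in day 4 co-exposure. The genes most like it were Tmem56 (r = 0.774), Uhrf1bp1l (0.766) and Pdxk (0.759). The 6 genes of an alveolar macrophage list were all detected in every library. They summed to 1260 to 1560 CPM after ozone, 683 to 1740 CPM after co-exposure and 1020 to 1090 CPM after carbon black on day 4, against 535 to 776 CPM in sham. On day 1 they summed to 589 to 956 CPM after co-exposure, 984 to 1180 CPM after ozone and 1170 to 1640 CPM after carbon black, against 774 to 990 CPM in sham. A list of 5 genes of monocytes and recruited macrophages was also detected in full in every library. On day 1 it summed to 262 to 337 CPM after co-exposure, 254 to 288 CPM after ozone and 285 to 380 CPM after carbon black, against 239 to 271 CPM in sham. On day 4 these sums were 393 to 650, 439 to 498 and 336 to 427 CPM in that order, against 270 to 318 CPM in sham. The part of either list in the Slc7a11 levels was not tested. In a homogenate, fewer cells of a type and less RNA per cell cannot be told apart.

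Gsr (ENSMUSG00000031584, chromosome 8, 33652523 to 33698163, plus strand) encodes glutathione reductase, which turns oxidized glutathione back to its reduced form with NADPH. It was the member that rose after carbon black on day 1. Its levels there were 95.9, 71, 152 and 146 CPM, against 73.3, 78, 75.2 and 70.6 CPM in sham, so 3 of 4 libraries were above the sham range and 1 lay inside it. The log2 fold change was 0.65 ± 0.15 (adjusted p = 0.0184). It did not pass without carbon black replicate 3 (0.49, adjusted p = 0.158) or 4 (0.51, adjusted p = 0.138), without sham replicate 1, 3 or 4 (adjusted p = 0.0662 to 0.0772), or with the compared groups alone in the fit (adjusted p = 0.275).

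Neutrophil genes moved with Gsr in the carbon black libraries of day 1. The 6 genes of that list, all detected in every library, summed to 969, 127, 4310 and 2350 CPM in the same order of libraries, against 40.1 to 236 CPM in sham. The library with the lowest Gsr level was also the one with a neutrophil sum inside the sham range. In co-exposed and ozone lungs of day 1 the sums were 20.3 to 49.6 and 31.5 to 59.8 CPM, within or below the sham range, while Gsr stood at 94.3 to 119 and 94.6 to 104 CPM. The part of neutrophils in the carbon black result was not tested.

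**Figure D3:**
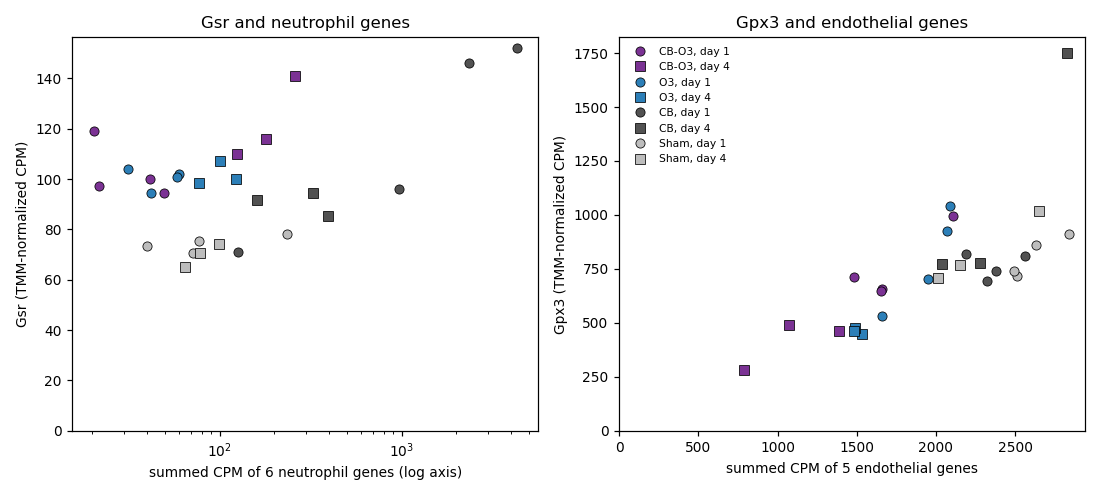
Left, Gsr against the summed CPM of 6 neutrophil genes (log axis) in the 28 libraries, with CB libraries of day 1 at 127 to 4310 CPM of neutrophil genes. Right, Gpx3 against the summed CPM of 5 endothelial genes, with CB-O3 libraries of day 4 at 788 to 1390 CPM and Sham libraries of day 4 at 2010 to 2650 CPM of endothelial genes, and each point 1 library.

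After co-exposure on day 1 Gsr had 94.3, 99.9, 119 and 97.4 CPM and after ozone 94.6, 102, 101 and 104 CPM, all above the sham libraries. The change was 0.47 ± 0.15 after co-exposure (adjusted p = 0.027). After ozone it was 0.44 ± 0.15 and missed the threshold (adjusted p = 0.0542), which it passed in DESeq2 (adjusted p = 0.0404) and with the compared groups alone in the fit (adjusted p = 0.0015). The co-exposure call was lost without co-exposure replicate 3 (adjusted p = 0.113) or sham replicate 1 or 4 (adjusted p = 0.0604 and 0.0642).

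On day 4 Gsr rose after both ozone exposures. It had 116, 141 and 110 CPM after co-exposure and 98.3, 107 and 99.9 CPM after ozone, against 70.6, 74.2 and 65.1 CPM in sham. The co-exposure change of 0.81 ± 0.17 (adjusted p = 0.00067) held in every alternative, and the ozone change of 0.54 ± 0.17 (adjusted p = 0.0251) was lost without ozone replicate 2 or 3 or sham replicate 1 or 3 (adjusted p = 0.0566 to 0.0986). The neutrophil genes summed to 125 to 261 CPM after co-exposure and 77.5 to 123 CPM after ozone on day 4, against 64.7 to 99 CPM in sham, and their part was not tested. Carbon black libraries of day 4, at 85.5, 91.7 and 94.3 CPM, were above sham with a change of 0.37 ± 0.17 that did not pass (adjusted p = 0.3). Group means ran from 122 ± 16.7 CPM in day 4 co-exposure to 70 ± 4.59 CPM in day 4 sham, and gaps without overlap lay on either side of day 4 carbon black. Tmem268 (r = 0.87), Dck (0.785) and Tpd52 (0.784) had the most similar patterns.

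Gpx2 (ENSMUSG00000042808, chromosome 12, 76792333 to 76795554, minus strand), a peroxidase of epithelia, was the member whose change after ozone differed between the days. On day 1 it had 58.8, 58.6, 81.7 and 61.1 CPM after co-exposure and 55.2, 68.3, 57.7 and 53.3 CPM after ozone, against 26.3, 21.7, 33.4 and 25.5 CPM in sham. The 8 libraries with ozone were above all sham libraries. The log2 fold changes were 1.28 ± 0.18 after co-exposure (adjusted p = 2.65e-05) and 1.13 ± 0.18 after ozone (adjusted p = 0.00021), and both calls held in every alternative. Carbon black libraries, at 22, 22.1, 35.2 and 21.1 CPM, overlapped sham (-0.10 ± 0.19, 95% interval -0.48 to 0.29).

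On day 4 Gpx2 stood at 28.1, 26.9 and 30 CPM after ozone, inside the sham range of 26.6, 33.7 and 26.2 CPM (-0.02 ± 0.21, 95% interval -0.46 to 0.42). The difference of the ozone change between the days was -1.15 ± 0.28 (adjusted p = 0.0187), and Gpx2 was the single member past the threshold there, where 1.88% of all genes were lower and 4.24% passed in either direction. That call was lost without ozone replicate 2 of day 4 (-1.11, adjusted p = 0.0555) or sham replicate 2 of day 4 (-1.04, adjusted p = 0.0654). Co-exposed lungs of day 4 had 31.9, 47.7 and 41.5 CPM, with 2 of 3 libraries above sham. Their change of 0.49 ± 0.21 did not pass (adjusted p = 0.0753), but did without co-exposure replicate 1 (0.64, adjusted p = 0.0292).

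For co-exposure the difference between the days, -0.79 ± 0.28, missed the threshold (adjusted p = 0.0697) and passed without sham replicate 3 of day 1 (adjusted p = 0.0429). Over the 8 groups Gpx2 was highest in day 1 co-exposure (65.1 ± 11.1 CPM) and day 1 ozone (58.6 ± 6.73 CPM), which overlapped, and day 1 ozone did not overlap the next group, day 4 co-exposure (40.4 ± 7.96 CPM). The other 5 groups, at 25.1 to 33.3 CPM, each overlapped their neighbours. Cbr3 (r = 0.926), Gsta1 (0.909) and Nqo1 (0.908), which encode a carbonyl reductase, a glutathione S-transferase and a quinone reductase, had the most similar patterns. Club cell genes, a list of 5 all detected in every library, summed to 27000 to 30400 CPM after ozone on day 4, against 47700 to 63100 CPM in sham. The sums there were 24300 to 54800 CPM after co-exposure and 39800 to 44200 CPM after carbon black. On day 1 they were 29400 to 43600 CPM after ozone, 34000 to 62400 CPM after co-exposure and 32800 to 51900 CPM after carbon black, against 35100 to 46600 CPM in sham. The part of club cells in the Gpx2 levels was not tested. Gpx2 overlaps Fntb on the opposite strand.

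Gpx1 (ENSMUSG00000063856, chromosome 9, 108338903 to 108340343, plus strand) encodes the widespread cytosolic peroxidase and rose after co-exposure. On day 1 it had 308, 339, 371 and 350 CPM after co-exposure, against 217, 266, 248 and 255 CPM in sham, without overlap. The change was 0.47 ± 0.12 (adjusted p = 0.0066). Ozone libraries, at 267, 268, 280 and 270 CPM, lay just above the sham range with a change of 0.14 ± 0.12 that did not pass (adjusted p = 0.509). On day 4 the levels were 330, 468 and 319 CPM after co-exposure, against 319, 264 and 284 CPM in sham, and the highest sham library touched the lowest co-exposure library.

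The day 4 change of Gpx1 was 0.36 ± 0.14 in the fit without a pairing (adjusted p = 0.0425). Same-numbered libraries deviated together there, and with the replicate number as a block the change did not pass (adjusted p = 0.0504). It was 0.16 without co-exposure replicate 2 (adjusted p = 0.388) and was lost without sham replicate 2 or 3 (adjusted p = 0.147 and 0.102). Ozone on day 4 (287, 309 and 328 CPM) and carbon black on day 1 (220, 249, 329 and 302 CPM) and day 4 (312, 249 and 250 CPM) did not pass. Neighbours overlapped throughout the order of means, from 372 ± 83.4 CPM in day 4 co-exposure to 246 ± 21.1 CPM in day 1 sham. Actb (r = 0.819), Rpl36al (0.815) and Dad1 (0.815) were most like it.

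Gpx4 (ENSMUSG00000075706, chromosome 10, 80047166 to 80056439, plus strand) encodes the peroxidase that reduces lipid hydroperoxides in membranes and protects cells from ferroptosis. It rose after co-exposure on day 4, at 320, 530 and 466 CPM, against 287, 248 and 331 CPM in sham. Of the 3 co-exposure libraries 2 were above sham and 1 lay within its range. The change was 0.60 ± 0.14 (adjusted p = 0.0017), and with the compared groups alone in the fit it did not pass (adjusted p = 0.0564). On day 1 co-exposed lungs had 319, 300, 355 and 368 CPM, against 243, 266, 306 and 263 CPM in sham, and the change of 0.32 ± 0.12 did not pass (adjusted p = 0.0715). It passed with the compared groups alone in the fit (adjusted p = 0.0356) and without co-exposure replicate 2 (adjusted p = 0.0495) or sham replicate 3 (adjusted p = 0.0476).

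Ozone alone left Gpx4 at 255, 266, 282 and 239 CPM on day 1 and at 296, 336 and 361 CPM on day 4, within or overlapping the sham ranges, and carbon black at 216, 254, 239 and 234 CPM and at 232, 226 and 287 CPM. None of these changes passed. Neighbours overlapped throughout the order of means, from 439 ± 108 CPM in day 4 co-exposure to 235 ± 15.6 CPM in day 1 carbon black. Atp5mpl (r = 0.957), Banf1 (0.956) and Ppia (0.955) had the most similar patterns. The pseudogene Gpx4-ps2 held 129 counts in the 28 libraries, against 61198 counts for Gpx4.

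By their longest annotated transcripts, 1072 and 995 bases, Gpx1 and Gpx4 are the shortest of the 9 genes. Transcript length moved with co-exposure over all genes. Of the genes tested, the 1164 with transcripts of 1200 bases or less had a median log2 fold change of 0.17 after co-exposure on day 1 and 0.30 on day 4, and the 8454 with transcripts over 3000 bases had -0.05 and -0.08. With a length correction, chosen after seeing the data, the Gpx1 change was 0.31 on day 1 (adjusted p = 0.0594) and 0.13 on day 4 (adjusted p = 0.473). The Gpx4 change was 0.14 on day 1 (adjusted p = 0.217) and 0.34 on day 4, where it passed (adjusted p = 0.0036). Calls of Gclc, Gclm, Gss, Slc7a11, Gsr and Gpx2, members with longer annotated transcripts, held with this correction after co-exposure on day 1. The correction used the longest annotated transcript, 3165 bases for Gpx2, whose annotated exons together cover its whole gene body of 3222 bases. Shorter Gpx2 transcripts would be corrected by a different amount, and whether the Gpx2 call holds for them was not tested. On day 4 the correction also brought Gclm to 0.37 (adjusted p = 0.0228) and Slc7a11 to 1.11 (adjusted p = 0.0377) after co-exposure, past the threshold.

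**Figure D4:**
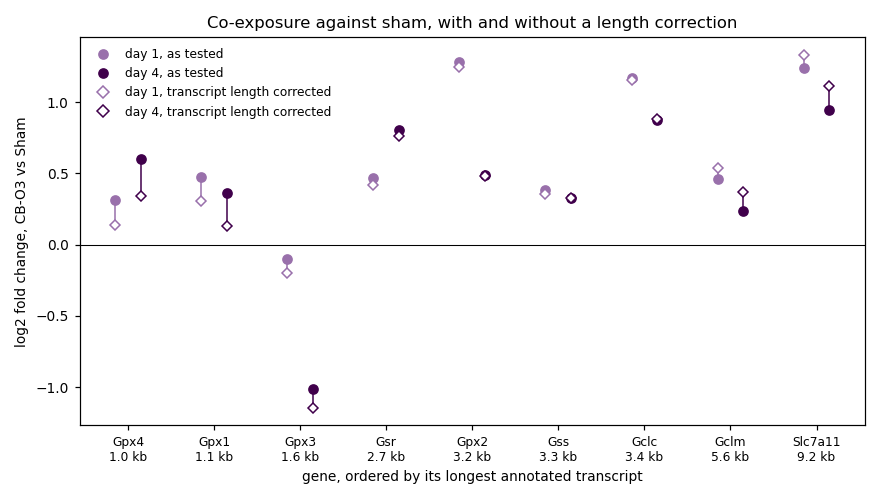
Log2 fold change after CB-O3 against Sham on day 1 and day 4 as tested (filled circles) and with the transcript length correction (open diamonds), for the 9 genes ordered by longest annotated transcript. The points of Gpx4 and Gpx1, the 2 shortest, move down, Gpx4 to 0.14 and 0.34 and Gpx1 to 0.31 and 0.13, and those of Slc7a11 and Gclm, the 2 longest, move up.

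Gpx3 (ENSMUSG00000018339, chromosome 11, 54902453 to 54910377, plus strand) encodes the secreted peroxidase of plasma and extracellular fluid, and was the member that fell. On day 4 it had 462, 492 and 280 CPM after co-exposure and 447, 477 and 464 CPM after ozone, against 1020, 770 and 707 CPM in sham. All 6 libraries with ozone were below all sham libraries. The log2 fold change was -1.02 ± 0.27 after co-exposure (adjusted p = 0.00531), or 2.02-fold lower, and held in every alternative. After ozone it was -0.85 ± 0.27 (adjusted p = 0.0272), and it was lost without ozone replicate 1, 2 or 3 or sham replicate 1 and without the low-count filter (adjusted p = 0.0535 to 0.116).

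On day 1 Gpx3 stood at 655, 995, 711 and 647 CPM after co-exposure, 1040, 531, 702 and 924 CPM after ozone and 696, 809, 818 and 739 CPM after carbon black, against 911, 715, 859 and 740 CPM in sham, and no change passed. The difference between the days was -0.92 ± 0.36 for co-exposure (adjusted p = 0.103) and -0.83 ± 0.35 for ozone (adjusted p = 0.22), neither past the threshold. Carbon black libraries of day 4 had 1750, 777 and 771 CPM, with replicate 1 the highest of all 28 libraries, and a change of 0.40 ± 0.27 that did not pass (adjusted p = 0.485). Means of the groups other than day 4 ozone (463 ± 15 CPM) and day 4 co-exposure (411 ± 115 CPM) ran from 752 to 1100 CPM with overlapping neighbours, and no library of day 1 co-exposure overlapped day 4 ozone.

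Endothelial genes moved with Gpx3. The 5 genes of that list, all detected in every library, summed to 788 to 1390 CPM after co-exposure and 1480 to 1530 CPM after ozone on day 4, against 2010 to 2650 CPM in sham. On day 1 they summed to 1480 to 2110 CPM after co-exposure and 1660 to 2090 CPM after ozone, against 2490 to 2840 CPM in sham, where Gpx3 did not pass. Adgrf5 (r = 0.93), Sema6a (0.921) and Gatad2b (0.912) had the patterns most like Gpx3. The part of endothelial cells in its fall was not tested.

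Set directly against ozone alone, co-exposure changed none of the 9 genes past the threshold on either day, and edgeR called 0% of all genes in both comparisons. Unadjusted p-values under 0.05 were found for 2 members and 2337 genes on day 1, and for 2 members and 2991 genes on day 4. DESeq2 called 0 members on both days, and 23 of all genes on day 1 and 487 on day 4. The libraries of the 2 exposures did not overlap for Gpx1 and Gpx4 on day 1, where 5.13% of all genes had every co-exposure library higher, and for Gclm, Gsr and Gpx2 on day 4, where 9.57% did. On day 1 the smallest p-values were those of the short genes Gpx4 (0.37 ± 0.12, adjusted p = 0.206) and Gpx1 (0.33 ± 0.12, adjusted p = 0.217), which were 0.10 and 0.08 with the length correction. For Gclc the difference was 0.08 on day 1 (95% interval -0.15 to 0.31) and -0.13 on day 4 (-0.40 to 0.13). For Gpx2 it was 0.15 on day 1 (-0.21 to 0.51) and 0.51 on day 4 (0.07 to 0.95, adjusted p = 0.185). The day 4 difference of Gpx2 passed without co-exposure replicate 1 (0.66, adjusted p = 0.0439). That of Gpx4 was 0.41 ± 0.14 (adjusted p = 0.125), or 0.60 without the same library (adjusted p = 0.0037) and 0.11 with the length correction (adjusted p = 0.556).

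Against carbon black alone, co-exposure had 4 members higher on day 1 (Gclc, Gss, Gpx2 and Gpx4), where 13.1% of all genes were higher and 25.9% passed in either direction. Gclc was 1.22 ± 0.11 higher (adjusted p = 8.58e-08), Gpx2 1.38 ± 0.18 (adjusted p = 7.87e-06) and Gpx4 0.51 ± 0.12 (adjusted p = 0.00308, and 0.22 with adjusted p = 0.0342 after the length correction). On day 4, 5 members were higher (Gclc, Gss, Gsr, Gpx1 and Gpx4) and Gpx3 was lower, against 19.3% of all genes higher, 18.9% lower and 38.2% in all. Gpx3 was 1.42 lower on the log2 scale (-1.42 ± 0.27, adjusted p = 0.00027) and Gpx4 0.82 ± 0.14 higher (adjusted p = 6.95e-05, and 0.42 with the length correction). Gclc was 0.48 ± 0.13 higher (adjusted p = 0.00464), which was lost without carbon black replicate 3 (0.30, adjusted p = 0.05) and with the compared groups alone in the fit (adjusted p = 0.123). Gpx1 (0.46 ± 0.14, adjusted p = 0.00964) was 0.10 with the length correction (adjusted p = 0.611), and was lost without co-exposure replicate 2 (adjusted p = 0.143) or carbon black replicate 2 (adjusted p = 0.0506) and with the compared groups alone (adjusted p = 0.132). Gsr (0.43 ± 0.17, adjusted p = 0.0464) was lost without co-exposure replicate 1 or 2 or carbon black replicate 1, 2 or 3 (adjusted p = 0.0511 to 0.214, and 0.0685 without carbon black replicate 3). It was also lost without the low-count filter (adjusted p = 0.0721), with the compared groups alone (adjusted p = 0.0779) and with the length correction (adjusted p = 0.127). Gsr did not differ past the threshold on day 1 (-0.18 ± 0.15), and without carbon black replicate 2 it was lower in co-exposure (-0.35, adjusted p = 0.0288). Gpx1 missed the threshold on day 1 (0.31 ± 0.12, adjusted p = 0.0547) and passed without carbon black replicate 3 (adjusted p = 0.0196) or co-exposure replicate 1 (adjusted p = 0.0401). On day 4 Gpx2 passed without carbon black replicate 2 (0.56, adjusted p = 0.0492) and Slc7a11 without carbon black replicate 1 (-1.02, adjusted p = 0.0486).

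Beyond the Slc7a11 value of day 4, 0 members passed the interaction test at day 1, where 1.46% of all genes did. Unadjusted p-values under 0.05 were found there for 4 members and 2893 of the 14887 genes, and DESeq2 called 1 member, Gpx4, and 530 genes. Its interaction was 0.56 ± 0.17 at day 1 (adjusted p = 0.0888) and 0.62 ± 0.20 at day 4 (adjusted p = 0.0795). With the length correction these were 0.18 and 0.19, neither past the threshold. The day 4 value passed in DESeq2 (adjusted p = 0.036), with the replicate block (adjusted p = 0.0391), without co-exposure replicate 1 (0.81, adjusted p = 0.00289) and without carbon black replicate 3 (0.74, adjusted p = 0.0341). For Gsr the day 1 interaction was -0.62 ± 0.21 (adjusted p = 0.115), and it passed without carbon black replicate 2 (-0.79, adjusted p = 0.00483). For Gclc the day 4 interaction of -0.53 ± 0.18 did not pass in edgeR (adjusted p = 0.0937) and did in DESeq2 (adjusted p = 0.0477), without carbon black replicate 3 (-0.70, adjusted p = 0.017) and without co-exposure replicate 1 (-0.62, adjusted p = 0.0222). Between days, 0 members differed in the change after carbon black, where 0.094% of all genes did, and 0 in the change after co-exposure, where 10.2% did. The unadjusted p was under 0.05 for 1 member and 1248 genes after carbon black, and for 2 members and 3676 genes after co-exposure. DESeq2 called 0 members in both, and 37 and 1742 genes in the same order. Sham lungs of day 4 against those of day 1 had 0 members and 0% of all genes past the threshold, with 0 members and 1473 genes at an unadjusted p under 0.05, and 0 members and 0 genes in DESeq2.

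Genes around the 9 in glutathione metabolism were examined as a list of 35, of which 32 could be tested. They cover degradation, amino acid supply, other peroxidases, glutaredoxins and transport. After ozone on day 1, 4 of the 32 rose (12.5%, against 6.81% of all genes) and 0 fell. Esd, which encodes S-formylglutathione hydrolase, rose by 1.35 ± 0.13, the glutaredoxin gene Glrx by 0.76 ± 0.13, the leucine aminopeptidase gene Lap3 by 0.61 ± 0.10 and the peroxiredoxin gene Prdx6 by 0.59 ± 0.12. Co-exposure on day 1 raised 6 (18.8%, against 10.1% of all genes) and lowered 2 (6.25%, against 9.09%), led by the same 4 genes, with Esd at 1.58 ± 0.13 and Glrx at 1.03 ± 0.13. The 2 that fell, named after their values were seen, were the peptidase genes Dpep1 (-0.54 ± 0.185) and Anpep (-0.47 ± 0.12). The median of the 32 was 0.03 after ozone and 0.07 after co-exposure, near that of all genes at -0.01 and 0.00.

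On day 4 the shares of the list lay near those of all genes. After ozone 3 rose (9.38%, against 11.7% of all genes) and 4 fell (12.5%, against 9.07%), among them Lap3 (0.80 ± 0.12) and Glrx (0.56 ± 0.15) upwards and Dpep1 (-1.29 ± 0.22) and Slc3a2 (-0.38 ± 0.09) downwards. Slc3a2 encodes the heavy chain that carries Slc7a11 to the cell surface. The transcripts of the 2 genes moved in opposite directions in whole lung after ozone on day 4. Whether they did so in the same cells, or in protein, was not tested. The change of Slc3a2 after ozone differed between the days (-0.62 ± 0.12, adjusted p = 0.00369), as did those of Prdx6 (-0.995 ± 0.19), Esd (-0.92 ± 0.19) and Dpep1 (-1.14 ± 0.29). After co-exposure on day 4, 6 rose (18.8%, against 17.7% of all genes) and 4 fell (12.5%, against 16.3%), led by Dpep1 (-1.79 ± 0.23), Lap3 (0.85 ± 0.12), Glrx (0.88 ± 0.15) and Anpep (-0.79 ± 0.14). Carbon black changed 0 of the 32 on either day, where 1.66% of all genes passed on day 1 and 0.208% on day 4.

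All 4 peroxidases of the set are selenoproteins in mice, so genes of selenium supply and selenocysteine insertion were examined as well, a list of 10 that were all tested. On day 1, 3 of 10 rose after co-exposure (30%, against 10.1% of all genes) and 3 after ozone (against 6.81%). Lrp8, a receptor for selenoprotein P, rose by 1.98 ± 0.25 after co-exposure and 2.11 ± 0.25 after ozone. The selenium-binding protein gene Selenbp1 rose by 0.93 ± 0.17 and 0.71 ± 0.17, and Secisbp2, which encodes the protein that binds the selenocysteine insertion element, by 0.36 ± 0.09 and 0.31 ± 0.09, in the same order of exposures. On day 4, 3 rose and 1 fell after each (30% and 10%, against 17.7% of all genes higher and 16.3% lower after co-exposure and 11.7% and 9.07% after ozone). Sephs2, which makes the selenium donor selenophosphate, rose by 0.90 ± 0.10 after co-exposure and 0.70 ± 0.10 after ozone, and Sepsecs, which makes the selenocysteine on its tRNA, by 0.32 ± 0.10 and 0.50 ± 0.10. Selenop, the gene of the plasma selenium carrier, fell by 0.97 and 0.78 on the log2 scale. Carbon black changed 0 of 10 on either day, against 1.66% of all genes on day 1 and 0.208% on day 4.

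Among 8 genes for NRF2 and its regulators, Nfe2l2 itself rose after co-exposure and ozone on both days, by 0.43 ± 0.08 and 0.35 ± 0.08 on day 1 and by 0.48 ± 0.10 and 0.44 ± 0.10 on day 4. Of the small Maf genes, whose proteins pair with NRF2, Maff rose on day 1 (0.69 ± 0.13 after co-exposure and 0.64 ± 0.13 after ozone). Mafk fell on day 4 (-0.75 ± 0.10 and -0.53 ± 0.10), as did Mafg (-0.46 after each). Co-exposure lowered 1 gene of the list on day 1 (12.5%, against 9.09% of all genes) and 4 on day 4 (50%, against 16.3%), the last of which were Mafk, Mafg, the KEAP1-binding autophagy receptor gene Sqstm1 (-0.37 ± 0.10) and Bach1 (-0.40 ± 0.11), a repressor at antioxidant response elements that was named after its value was seen. Keap1, which encodes the inhibitor of NRF2, and Cul3 did not pass against sham. Carbon black changed 0 of the 8 on either day, against 1.66% of all genes on day 1 and 0.208% on day 4.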

How the data were processed

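Whole-lung messenger RNA of 28 libraries was measured as estimated counts per gene, in 1 deposited table. Per the labels, the authors estimated counts from stranded paired reads with Salmon 1.1.0. Without stating their role, the submitters' processing notes list mm10, R 3.6.3 and DESeq2. The summing of transcripts to genes and the strand setting are not stated in the labels. Of the deposited estimated counts 17.7% were not whole, and all were rounded. Every column belonged to a labelled sample.

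Tests used edgeR 4.0.16 in R 4.3.3 (TMM scaling, the default low-count filter, a robust quasi-likelihood F test) in 1 fit of all 28 libraries with a mean per group and 20 residual degrees of freedom. P-values were Benjamini-Hochberg adjusted over 14887 genes at a threshold of 0.05, in each of 16 comparisons. A standard error (SE) is the log2 fold change divided by the square root of F, and intervals are 95%. A fixed floor of 3 counts equals 0.309 to 0.649 CPM per library. It bears on counting at the lowest levels only, and is not an estimate of the error at higher counts.

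All 9 members were named, at most 4 genes per list and comparison by smallest p among those past the threshold, and the 3 most alike genes per member (Pearson r of log2 CPM with a pseudocount of 2 counts, minimum mean 5 CPM). The members and lists were chosen with earlier results of these data known. Positions are from GENCODE M21 on GRCm38, the assembly also called mm10. Alternatives were DESeq2 1.42.0 with its own size factors, its scaling in edgeR, no filter, the compared groups alone, a replicate block, leaving out each library, and, chosen after seeing the data, a transcript length correction (a lowess curve per library). Same-numbered libraries deviated together (correlations of 0.153 to 0.352 in 3 of 3 pairs) in co-exposure against sham on day 4. The calls given for that comparison come from the fit without a pairing, and the replicate block is an alternative to it. Tested on simulated data for ozone against sham on day 1, edgeR recovered 89% of genes changed by 1 log2 unit and 46% of those changed by 0.5, with 5 false calls among 14719 genes. DESeq2 recovered 91% and 52%, with 18 false calls among 14887. The 200 changed genes were drawn from those with a mean over 5 CPM, and the other groups were left unchanged. These shares therefore do not cover rarer genes or data in which many more genes move.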

Additional observations from a re-analysis of the deposited data

Results flagged for a closer look

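Of 36 groups of 4 libraries examined for an outlying library, 2 had one, both for Gpx2, where chance gives about 5% of groups. Carbon black replicate 3 of day 1 had 35.2 CPM, and its gap to the next library took 0.928 of the group's range. Co-exposure replicate 3 of day 1 had 81.7 CPM, with a gap of 0.892 of the range. Both gaps passed Dixon's critical value for 4 libraries.

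The change of Gpx2 after ozone differed between the days by a test of the difference itself (day 4 minus day 1, -1.15, adjusted p = 0.0187, edgeR). That call was lost without ozone or sham replicate 2 of day 4 (adjusted p = 0.0555 and 0.0654). The change of Slc7a11 after co-exposure on day 4 differed from the sum of the single changes (-2.29, adjusted p = 0.0463, edgeR). This call was lost without carbon black replicate 2 (adjusted p = 0.135) and without most other single libraries. It was also lost without the low-count filter, with the compared groups alone (adjusted p = 0.239) and with the length correction. What lies behind these values was not tested.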

How the results depend on the processing

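Across the 9 genes and 16 comparisons, no member's called value reversed under an alternative. The side of the threshold, and the direction of values past it in either fit, were kept in 144 of 144 values with median-of-ratios scaling. The same held for 139 of 144 without the low-count filter, 140 of 144 with the replicate block and 129 of 144 with the compared groups alone. It held for 135 of 141 with DESeq2, 136 of 144 with the length correction and 1256 of 1323 when a library was left out. Values past the threshold in neither fit could change sign and still count as kept. The day 1 interaction of Gpx1 did so (0.17, and -0.18 with the length correction). DESeq2 gave no adjusted p for Slc7a11 in 3 comparisons, the day 4 interaction among them.

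The day 4 interaction had 1 member past the threshold, Slc7a11, against 0 without the low-count filter, 0 with the compared groups alone and 0 with the length correction. It had 2 with the replicate block and 2 with DESeq2. Over all genes 204 passed there, against 64 without the filter, 0 with the compared groups alone and 45 with the length correction. The replicate block gave 839 and DESeq2 1006. The 2 members called by DESeq2 were Gclc and Gpx4, and Slc7a11 had no adjusted p there. With the compared groups alone, the number of members was 0 in place of 1 for carbon black against sham on day 1, 3 in place of 6 for co-exposure against sham on day 4, 2 in place of 6 for co-exposure against carbon black on day 4, 3 in place of 0 for the day 1 interaction and 2 in place of 1 for the ozone change between days. Over all genes these counts were 7 in place of 247, 3175 in place of 5073 and 2373 in place of 5687. For the day 1 interaction and the ozone change they were 898 in place of 218 and 1125 in place of 631. With DESeq2 the number of members was 1 in place of 0 for carbon black on day 4 and for the day 1 interaction. All genes gave 178 in place of 31 and 530 in place of 218 there. The cause was not tested.

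Leaving out 1 library gave 0 to 1 members for carbon black on day 1 and 0 to 2 on day 4, 3 to 4 for ozone on day 1 and 2 to 4 on day 4, and 5 to 8 for co-exposure on day 1 and 4 to 7 on day 4. Against carbon black co-exposure gave 4 to 5 on day 1 and 4 to 6 on day 4, and against ozone 0 to 0 and 0 to 2. Interactions gave 0 to 1 on day 1 and 0 to 3 on day 4. Between days the change gave 0 to 1 for ozone, 0 to 1 for co-exposure and 0 to 0 for carbon black, and sham gave 0 to 0. The counts of all genes in these fits are not given here, so the ranges do not set the members apart from other genes.

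Deviations of same-numbered libraries were mixed in the other comparisons. They correlated at 0.057 to 0.373 in ozone against sham on day 1 and at -0.073 to 0.479 in co-exposure against carbon black on day 4. In co-exposure against ozone on day 1 they correlated at -0.25 to -0.016. Outside co-exposure against sham on day 4, the replicate block brought the co-exposure change between days to 1 member in place of 0 (Gpx2, adjusted p = 0.0406). Over all genes 1513 passed there in place of 1522. The block also changed the calls of Gpx4 after co-exposure on day 1 (adjusted p = 0.033) and in the day 4 interaction (adjusted p = 0.0391). Depth limits Slc7a11 most, at 13 to 103 counts per library.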
